A study of Paeonia lactiflora with 8 samples.

Results

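Leaf and flower of herbaceous peony (Paeonia lactiflora) were compared through their messenger RNA, using all 4 libraries of these tissues among the 8 libraries of the series. The comparison takes the count columns of leaf replicates 1 and 2 against those of flower replicates 1 and 2, and every tested gene is a member. Leaf, flower and root come from the blossom period, while fruit was collected in its young stage, and each tissue has 2 replicates that the labels call biological. The labels name no cultivar, genotype, treatment, plant age or part of the flower. The study set out from the different content of paeoniflorin, a monoterpene glycoside of peony, in the 4 tissues. Genes are components of a de novo assembly, so they have no coordinates, and their symbols are borrowed from other plants.

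A leaf blade is mostly green mesophyll. Its chloroplasts capture light with chlorophyll-binding antenna proteins, move electrons through 2 photosystems, and fix carbon dioxide with Rubisco in the Calvin cycle. An open flower carries petals and stamens whose identity is set by MADS-box transcription factors of the B class in other flowering plants. Petals grow largely by cell expansion, which needs wall-loosening proteins and water channels, and they often make waxes, pigments and scent compounds.

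Estimated counts per library were 49173429 and 42795795 for leaf and 39758080 and 30399492 for flower. Replicates correlated at r = 0.909 in leaf and 0.884 in flower across genes, which are not independent replicates. Flower replicate 2 stood apart: 41.4% of its counts fell on IDs named TAR1-A, after a yeast transcript opposite ribosomal RNA, against 5.86% in flower replicate 1 and 3.38% and 1.77% in leaf. Values below are TMM-scaled CPM, given as replicate 1 and then replicate 2. They are not corrected for gene length, so levels are compared between tissues within a gene. In bulk tissue, fewer cells of a type and less RNA per cell cannot be told apart.

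Of 27939 genes tested, 2794 were higher and 2604 lower in leaf than in flower, or 10% and 9.32% of those tested. A gene passed with a Benjamini-Hochberg adjusted p under 0.05 in edgeR's quasi-likelihood test together with a log2 fold change of 1 or more in size, where positive means higher in leaf. In all 5398 genes that passed, both libraries of one tissue lay above both of the other, as they did in 64.1% of all genes tested. The flower libraries held no count for 384 of the higher genes, and the leaf libraries none for 250 of the lower genes. For such genes the fold is given as a lower bound, against 3 counts over the 2 libraries at 0. The higher genes made up 51.8% of the calls, but 68.4% with limma on log2(TPM + 1), which called 4089 higher and 1885 lower. With DESeq2 the counts were 4122 and 4060.

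Leaving out any leaf or flower library, which set 1 library against 2, cut the calls strongly. These fits also tested more genes, 29657 to 29916 against 27939. The loss differed by library, and its cause was not tested. Without flower replicate 1, 1022 genes were higher and 740 lower, and 1671 of the 5398 calls were kept. Without flower replicate 2 the counts were 1156 and 1142, with 2085 calls kept. Without leaf replicate 1 they were 1020 and 477, with 1479 kept, and without leaf replicate 2 they were 767 and 254, with 1016 kept. Without flower replicate 2, all 5398 genes kept the sign of their difference. This is no further check, since both libraries of one tissue lay above both of the other in each of them. Where calls of a gene group with a library left out are given below, they are those without flower replicate 1, flower replicate 2, leaf replicate 1 and leaf replicate 2, in that order. The shares over all genes, 10% higher and 9.32% lower, are the background for the count of each group.

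**Figure D1:**
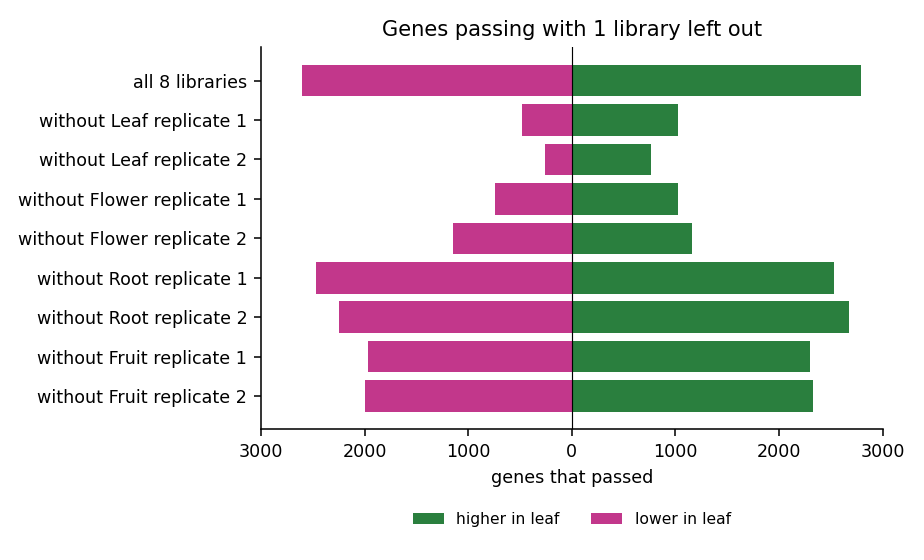
Number of genes that passed (x axis, genes higher in leaf to the right, lower to the left) with all 8 libraries and with each library left out in turn. All 8 libraries gave 2794 and 2604 genes; the 4 bars without a leaf or flower library are shortest, down to 767 and 254 without leaf replicate 2.

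**Figure D2:**
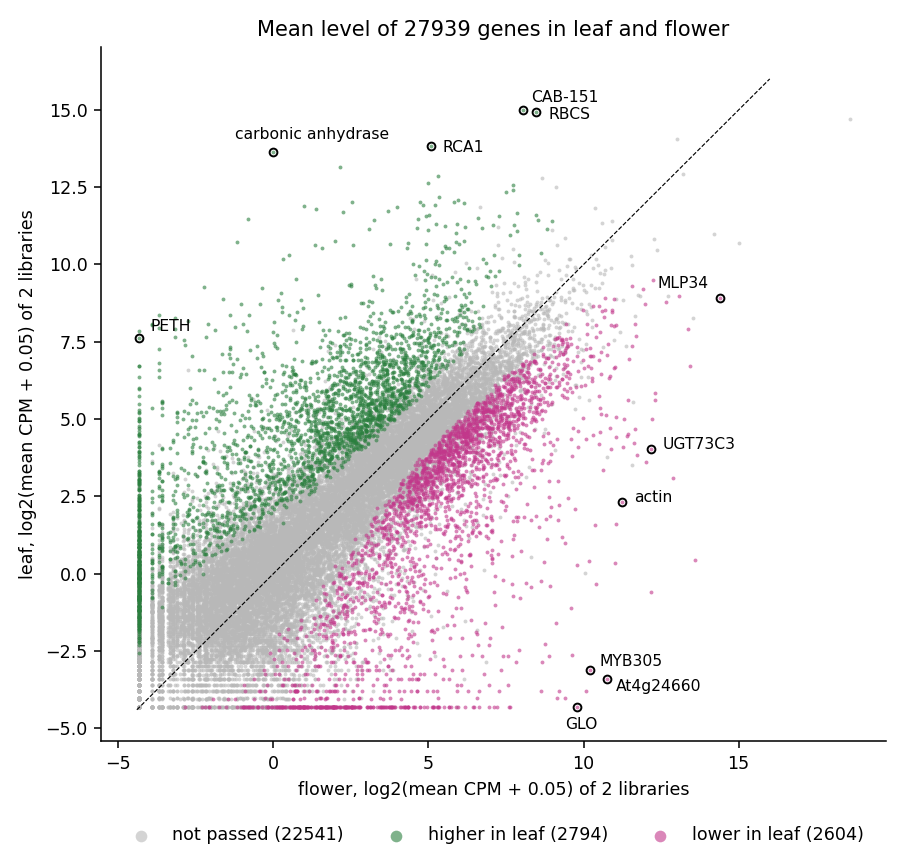
Mean level of each tested gene in flower (x axis) and leaf (y axis), as log2(mean CPM + 0.05) over the 2 libraries of the tissue; each point is a gene, coloured by whether it passed. CAB-151, RBCS and carbonic anhydrase stand far above the dashed line of equal level, and GLO, MYB305 and At4g24660 far below it.

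The tissue labels were checked against defining genes. The summed level of 19 tested antenna genes was 85158 and 53118 CPM in leaf and 1030.2 and 1299.5 CPM in flower. The 4 petal and stamen identity genes summed to 2.72 and 1.33 CPM in leaf and 1653 and 1309 CPM in flower. Both sums matched the labels in every library. Genes with pollen or anther names or GO terms summed to 2777 and 2601 CPM in leaf and 5357 and 5203 CPM in flower, and 9 of 153 were higher and 20 lower in leaf. With a library left out 5, 9, 2 and 2 of these were higher and 3, 4, 5 and 3 lower. Of 5 IDs named SF3, a pollen LIM-domain protein, 3 did not pass. The other 2, which were chosen after their values were seen, were at 0 in both leaf libraries and reached 17.9 and 10.02 CPM and 2.84 and 3.62 CPM in flower. None of 7 guard-cell marker IDs passed in edgeR, while DESeq2 called 1 and the fit on leaf and flower alone called 3, with 1 higher at an unadjusted p under 0.05; their sum was 69.7 and 59.2 CPM in leaf and 11.3 and 15.1 CPM in flower. Of 33 vascular marker genes 1 was higher and 4 were lower in leaf, and of 12 seed storage and oil body genes 2 were lower. With a library left out, 0, 1, 1 and 1 vascular genes were higher and 0, 2, 0 and 0 lower, and 1, 2, 1 and 0 seed genes were lower. The vascular genes summed to 897 and 747 CPM in leaf and 1493 and 1468 CPM in flower, and the seed genes to 247 and 188 CPM in leaf and 3242 and 1855 CPM in flower. The part of these cell types in the differences below was not tested.

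Genes of light capture were far higher in leaf. 16 of 19 tested antenna genes and 22 of 28 nuclear photosystem I and II subunit genes passed, none of them lower, against 10% of all genes higher. The median log2 fold changes were 5.84 and 6.47, with 0.13 over all genes tested. CAB-151 (comp23126_c0), a chlorophyll a/b-binding protein of the photosystem II antenna, stood at 42752 and 22345 CPM in leaf and 241 and 289 CPM in flower (log2 fold change 6.94, SE 1.61, adjusted p = 0.0279). LHCB4.1 (comp6619_c1), of a minor antenna complex, stood at 4868 and 3504 CPM in leaf and 68.7 and 44.1 CPM in flower (log2 fold change 6.21, SE 1.08, adjusted p = 0.0113). The flower libraries of both genes held a small but clear level. PSBS (comp18327_c0), the photosystem II protein needed to shed excess light energy as heat, stood at 3909 and 4439 CPM in leaf and 3.17 and 8.26 CPM in flower (log2 fold change 9.52, SE 1.13, adjusted p = 0.00427). PSBO (comp22285_c0), of the oxygen-evolving complex, stood at 9101 and 5644 CPM in leaf and 56.1 and 23.6 CPM in flower (log2 fold change 7.53, SE 1.90, adjusted p = 0.0359). PSAL (comp15807_c0), a photosystem I subunit, stood at 5213 and 3569 CPM in leaf and 40.5 and 82.5 CPM in flower (log2 fold change 6.16, SE 0.86, adjusted p = 0.00601). The number of higher antenna genes was 5, 5, 8 and 7 with a library left out, and that of photosystem genes 7, 7, 12 and 9. The call of PSBS held with any leaf or flower library left out. PSAL did not pass without flower replicate 1 (adjusted p = 0.0514). LHCB4.1 did not pass without flower replicate 1, flower replicate 2 or leaf replicate 2 (adjusted p = 0.0533 to 0.0785). CAB-151 and PSBO did not pass whichever of the 4 libraries was left out (adjusted p = 0.0887 to 0.167).

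Most genes of electron transport in the thylakoid followed. 16 of 24 genes for thylakoid electron transport and the plastid ATP synthase were higher in leaf and none was lower, with a median log2 fold change of 4.83 and 11, 11, 14 and 11 left with a library out. Plastocyanin PETE (comp23393_c0), the copper protein that feeds photosystem I, stood at 3956 and 3094 CPM in leaf and 3.37 and 1.75 CPM in flower (log2 fold change 10.42, SE 1.95, adjusted p = 0.0143). SEND33 (comp7154_c0), a ferredoxin, stood at 4324 and 3525 CPM in leaf and 33.5 and 40.9 CPM in flower (log2 fold change 6.72, SE 1.75, adjusted p = 0.0393). PETH names ferredoxin-NADP+ reductase, which makes NADPH at the end of the chain. One PETH gene, comp5728_c0, stood at 3312 and 3410.3 CPM in leaf and 13.7 and 11.9 CPM in flower (log2 fold change 8.04, SE 1.12, adjusted p = 0.0061). A second PETH gene, comp16101_c1, stood at 147 and 243 CPM in leaf and 0 in both flower libraries (at least 3129.7-fold higher in leaf, adjusted p = 0.00546). ndhN (comp19318_c0), of the plastid NDH complex, stood at 120.3 and 91.1 CPM in leaf and 0 in both flower libraries (at least 1688-fold higher in leaf, adjusted p = 0.00321). The calls of PETH comp16101_c1 and ndhN held with any leaf or flower library left out. PETH comp5728_c0 did not pass without flower replicate 1 or flower replicate 2 (adjusted p = 0.0525 to 0.0573). PETE and SEND33 did not pass whichever of the 4 libraries was left out (adjusted p = 0.0558 to 0.2).

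Most carbon fixation genes that passed were higher in leaf. Of 47 genes with Calvin cycle names, which include cytosolic isoforms of shared enzymes, 27 were higher and 5 lower in leaf, with 17, 18, 18 and 17 higher and 3, 4, 3 and 1 lower when a library was left out. The Rubisco small subunit RBCS (comp23363_c0) stood at 31578 and 31408 CPM in leaf and 287 and 426 CPM in flower (log2 fold change 6.47, SE 1.06, adjusted p = 0.00954). RCA1 (comp20240_c0), Rubisco activase, which frees blocked Rubisco sites, stood at 18013 and 11268 CPM in leaf and 42.1 and 24.8 CPM in flower (log2 fold change 8.77, SE 1.05, adjusted p = 0.00428). GAPA (comp14930_c0), the NADPH-dependent glyceraldehyde phosphate dehydrogenase of plastids, stood at 6758 and 5857 CPM in leaf and 39.97 and 22.98 CPM in flower (log2 fold change 7.65, SE 0.82, adjusted p = 0.00347). All 3 were thus abundant in both leaf libraries and present at a low level in flower. The aldolase FBA1 (comp15888_c0) stood at 10778 and 7392 CPM in leaf and 4.95 and 3.74 CPM in flower (log2 fold change 11.03, SE 1.70, adjusted p = 0.00785). Another aldolase, FBA (comp11537_c0), ran the other way, at 55.5 and 51.7 CPM in leaf and 1518 and 1374 CPM in flower (log2 fold change -4.75, SE 0.78, adjusted p = 0.0094). The pair of aldolase genes thus lay on opposite sides. A gene annotated as carbonic anhydrase (comp19171_c0), which interconverts carbon dioxide and bicarbonate, stood at 13122 and 12245 CPM in leaf and 1.06 and 0.849 CPM in flower (log2 fold change 13.69, SE 1.21, adjusted p = 0.00279). The calls of RCA1, GAPA and carbonic anhydrase held with any leaf or flower library left out. FBA1 did not pass without flower replicate 1 or flower replicate 2 (adjusted p = 0.0626 to 0.0687). FBA comp11537_c0 did not pass without leaf replicate 1 or leaf replicate 2 (adjusted p = 0.0782 to 0.0949). RBCS comp23363_c0 did not pass without flower replicate 1, flower replicate 2 or leaf replicate 2 (adjusted p = 0.0527 to 0.0748).

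Photorespiration, which recycles the product of Rubisco's reaction with oxygen, had 15 of 33 genes higher in leaf and 1 lower, with 10, 9, 11 and 10 higher when a library was left out. The median log2 fold change was 0.29. GLO1 (comp7434_c0), glycolate oxidase of the peroxisome, stood at 5178 and 4147 CPM in leaf and 59.4 and 21.96 CPM in flower (log2 fold change 6.84, SE 1.12, adjusted p = 0.00946). GDCSP (comp16155_c0), a subunit of mitochondrial glycine decarboxylase, stood at 5886 and 5020.2 CPM in leaf and 226 and 198 CPM in flower (log2 fold change 4.69, SE 0.63, adjusted p = 0.00555). CAT1 (comp19400_c0), catalase, stood at 3489 and 2928 CPM in leaf and 296 and 164 CPM in flower (log2 fold change 3.80, SE 0.54, adjusted p = 0.00632). These 3 genes were high in both leaf libraries. The 1 lower gene was GDH2 (comp17106_c0), an H protein of glycine cleavage, at 19.3 and 28.9 CPM in leaf and 171 and 167 CPM in flower (log2 fold change -2.81, SE 0.49, adjusted p = 0.0113). The lower count was 0, 1, 0 and 0 with a library left out. The calls of GDCSP and CAT1 held with any leaf or flower library left out. GLO1 did not pass without flower replicate 1 or flower replicate 2 (adjusted p = 0.0551 to 0.0625). GDH2 did not pass without flower replicate 1, leaf replicate 1 or leaf replicate 2 (adjusted p = 0.0563 to 0.0904).

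Pigment synthesis followed the light-capture genes. 21 of 33 chlorophyll and haem genes were higher in leaf and none lower (12, 11, 12 and 9 with a library left out). CHLH (comp20946_c0) and CHLI (comp19061_c0) are subunits of magnesium chelatase, which commits the pathway to chlorophyll. CHLH stood at 1239 and 1304 CPM in leaf and 87.6 and 187 CPM in flower (log2 fold change 3.21, SE 0.59, adjusted p = 0.0134). CHLI stood at 495 and 404 CPM in leaf and 11.2 and 5.6 CPM in flower (log2 fold change 5.74, SE 0.62, adjusted p = 0.00351). Of 25 carotenoid genes, 14 were higher and 1 lower (10, 9, 11 and 9 higher and 0, 1, 0 and 0 lower with a library left out). PSY (comp21241_c0), phytoene synthase, the first step of the carotenoid pathway, stood at 353 and 346 CPM in leaf and 1.09 and 2.21 CPM in flower (log2 fold change 7.74, SE 0.80, adjusted p = 0.00321). A zeaxanthin epoxidase gene (comp8144_c0) of the xanthophyll cycle stood at 699.7 and 608 CPM in leaf and 36.4 and 51.3 CPM in flower (log2 fold change 3.90, SE 0.48, adjusted p = 0.0045). CCD1 (comp22644_c0), a carotenoid cleavage dioxygenase, stood at 788 and 985 CPM in leaf and 135 and 177 CPM in flower (log2 fold change 2.50, SE 0.44, adjusted p = 0.0119). The exception was CCS (comp31116_c0), annotated as a lycopene cyclase, at 4.38 and 6.81 CPM in leaf and 33.2 and 17.9 CPM in flower (log2 fold change -2.19, SE 0.47, adjusted p = 0.022). The calls of CHLI, PSY and zeaxanthin epoxidase held with any leaf or flower library left out. CHLH and CCS did not pass without flower replicate 1, leaf replicate 1 or leaf replicate 2 (adjusted p = 0.0583 to 0.142). CCD1 did not pass whichever of the 4 libraries was left out (adjusted p = 0.0511 to 0.0863). With limma on log2(TPM + 1), CCS did not pass (adjusted p = 0.0551).

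The machinery that maintains chloroplasts was also higher in leaf, with smaller folds. 24 of 40 plastid protease and division genes were higher and none lower (14, 10, 12 and 7 with a library left out; median log2 fold change 2.01). The fit on leaf and flower alone called 1 of them lower. For these and the antenna, photosystem, thylakoid and chlorophyll lists, DESeq2 called none lower, and at an unadjusted p under 0.05 1 antenna and 1 chlorophyll gene were lower and none of the other 3 lists. FTSH2 (comp23044_c0), a thylakoid protease that removes damaged photosystem II protein, stood at 3080 and 2482 CPM in leaf and 397 and 348 CPM in flower (log2 fold change 2.90, SE 0.55, adjusted p = 0.0144). Among ribosomal proteins of the bacterial type, found in plastids and mitochondria, 27 of 73 were higher and 1 lower (22, 16, 22 and 19 higher and 0, 0, 0 and 0 lower with a library left out). RPL1 (comp20769_c0) stood at 568 and 577 CPM in leaf and 14.7 and 7.81 CPM in flower (log2 fold change 5.67, SE 0.64, adjusted p = 0.00369). RPS1 (comp12366_c0) stood at 622 and 548 CPM in leaf and 81.1 and 50.5 CPM in flower (log2 fold change 3.15, SE 0.44, adjusted p = 0.00621). Cytosolic ribosomal proteins gave 4 higher and 10 lower of 253, both shares under those of all genes, although limma on log2(TPM + 1) gave 17 higher and 5 lower, and DESeq2 13 and 29. With a library left out 6, 0, 0 and 0 were higher and 3, 4, 0 and 0 lower. Of 65 IDs named for genes that the organelles themselves encode, only 5 passed as higher and 1 as lower. That count rests on the settings: DESeq2 gave 22 higher and the fit on leaf and flower alone 14, and 0, 1, 0 and 0 were higher and 0, 0, 0 and 0 lower with a library left out. The libraries were made from poly(A) RNA, and the summed level of these IDs was uneven within flower, at 27473 and 13191 CPM in leaf and 4018 and 13917 CPM in flower. The calls of RPL1 and RPS1 held with any leaf or flower library left out. FTSH2 did not pass whichever of the 4 libraries was left out (adjusted p = 0.0674 to 0.0871).

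**Figure D3:**
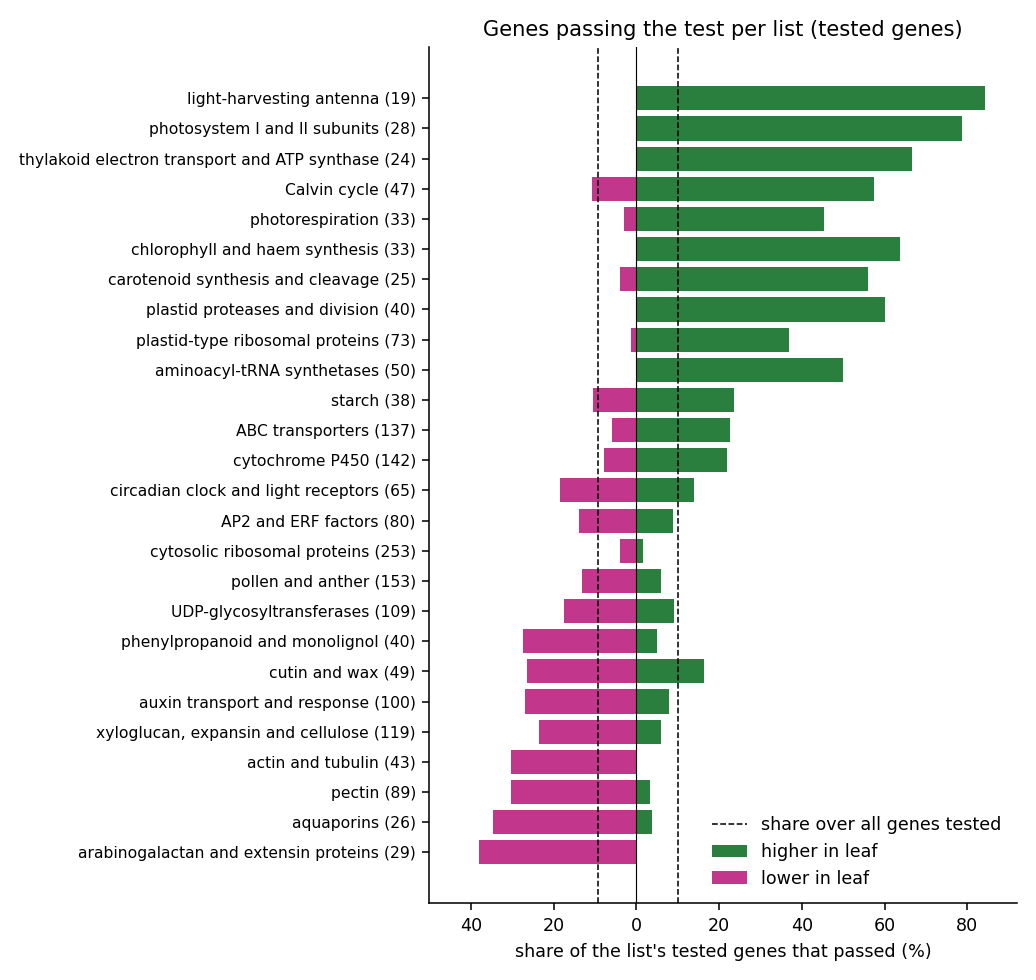
Share of the tested genes of each list (number in brackets) that passed as higher in leaf (right) or lower in leaf (left), with dashed lines at the shares over all genes tested, 10% and 9.32%. The lists of photosynthesis and plastid upkeep extend to the right, and those of the cell wall, aquaporins, actin and tubulin to the left.

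Nitrogen assimilation in leaf uses reducing power from the chloroplast. 4 of 9 tested genes were higher and none lower (4, 3, 4 and 4 with a library left out; none lower in DESeq2 or at an unadjusted p under 0.05). NIR1 (comp18719_c0), nitrite reductase, stood at 681 and 533 CPM in leaf and 12.3 and 7.3 CPM in flower (log2 fold change 5.95, SE 0.48, adjusted p = 0.00258). A ferredoxin-dependent glutamate synthase gene (comp20981_c0) stood at 1488 and 1445 CPM in leaf and 18.9 and 20.3 CPM in flower (log2 fold change 6.23, SE 0.57, adjusted p = 0.00279). A glutamine synthetase gene (comp14256_c0) stood at 2497 and 2473 CPM in leaf and 255 and 176 CPM in flower (log2 fold change 3.53, SE 0.53, adjusted p = 0.00713). These 3 steps carry nitrite to glutamate, and the flower libraries were low for each. Mineral transport gave 21 higher and 9 lower of 125 (7, 5, 4 and 8 higher and 3, 7, 2 and 2 lower with a library left out). AMT3-1 (comp20620_c0), an ammonium transporter, stood at 946 and 549 CPM in leaf and 1.91 and 1.3 CPM in flower (log2 fold change 8.85, SE 1.08, adjusted p = 0.00443). The ferric reductases split: FRO7 (comp22806_c0), the chloroplast form in Arabidopsis, stood at 405 and 391 CPM in leaf and 32.9 and 1.98 CPM in flower (log2 fold change 4.51, SE 1.20, adjusted p = 0.0416). FRO2 (comp23083_c0), the root surface form in Arabidopsis, stood at 30.7 and 41.2 CPM in leaf and 1547 and 1472 CPM in flower (log2 fold change -5.39, SE 0.83, adjusted p = 0.00795). FRO7 also differed within flower, where replicate 1 exceeded replicate 2 by far. The calls of NIR1, ferredoxin glutamate synthase and AMT3-1 held with any leaf or flower library left out. Glutamine synthetase comp14256_c0 did not pass without flower replicate 2 (adjusted p = 0.0528). FRO7 and FRO2 did not pass without leaf replicate 1 or leaf replicate 2 (adjusted p = 0.0732 to 0.129). With the effective-length offset, FRO7 did not pass (adjusted p = 0.0709).

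Among starch and sugar genes, the shares of starch genes lower and of sugar genes higher in leaf were near those of all genes. Of 38 starch genes 9 were higher and 4 lower in leaf (2, 4, 4 and 1 higher and 0, 2, 0 and 0 lower with a library left out; DESeq2 gave 16 higher), and of 53 sugar genes 4 were higher and 8 lower (3, 3, 3 and 2 higher and 2, 4, 2 and 2 lower). AGPS1 (comp21024_c0), of the enzyme that makes ADP-glucose for starch, stood at 324 and 454 CPM in leaf and 28.6 and 28.4 CPM in flower (log2 fold change 3.77, SE 0.66, adjusted p = 0.0115). SPS4 (comp18392_c0), sucrose phosphate synthase, stood at 289.6 and 253 CPM in leaf and 9.24 and 8.55 CPM in flower (log2 fold change 4.93, SE 0.37, adjusted p = 0.00258). A synthesis gene of each carbohydrate was thus among the higher ones. Among lower genes, BAM1 (comp22774_c0), a starch-degrading beta-amylase, stood at 185 and 214 CPM in leaf and 1489.5 and 1205 CPM in flower (log2 fold change -2.76, SE 0.57, adjusted p = 0.0188). INVA (comp22856_c0), an invertase that splits sucrose, stood at 0.31 and 0.522 CPM in leaf and 1003 and 548 CPM in flower (log2 fold change -10.86, SE 1.02, adjusted p = 0.00285). CWINV1 (comp1262_c0), named for a cell wall invertase, ran the other way, at 8.4 and 25.5 CPM in leaf and 0 in both flower libraries (at least 272-fold higher in leaf, adjusted p = 0.0102). The calls of SPS4 and INVA held with any leaf or flower library left out. CWINV1 did not pass without flower replicate 1 or leaf replicate 2 (adjusted p = 0.0567 to 0.0657). AGPS1 did not pass without flower replicate 1, flower replicate 2 or leaf replicate 2 (adjusted p = 0.0589 to 0.0853). BAM1 did not pass whichever of the 4 libraries was left out (adjusted p = 0.0579 to 0.146).

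**Figure D4:**
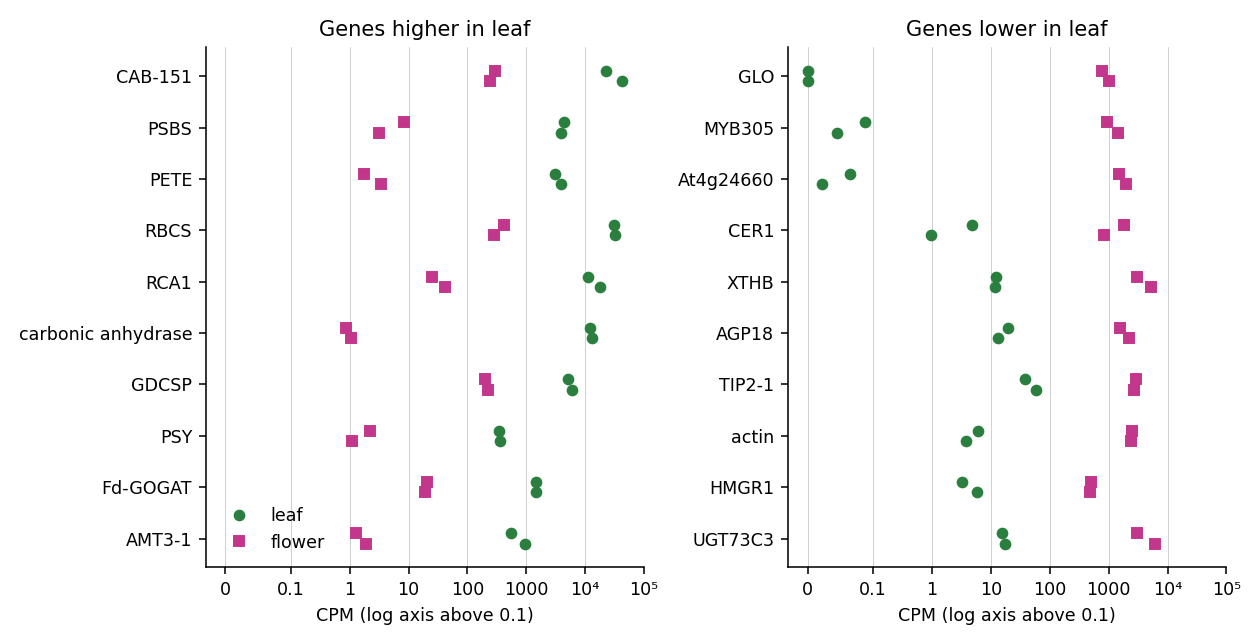
Level of 20 named genes in each leaf (circles) and flower (squares) library, in CPM on an axis that is logarithmic above 0.1; left, 10 genes higher in leaf, right, 10 lower. In every row the 2 leaf points and the 2 flower points do not overlap. The genes were chosen among the 5398 that passed, all of which show this, as do 64.1% of all genes tested.

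The MADS-box genes that set petal and stamen identity were lower in leaf in all 4 cases. GLO (comp18082_c0), a B-class gene of the PISTILLATA type, stood at 0 in both leaf libraries and 1009 and 765 CPM in flower (at least 27939-fold lower in leaf, adjusted p = 0.0028). FBP1 (comp12071_c0), of the same type in petunia, stood at 0 in both leaf libraries and 171 and 219 CPM in flower (at least 5741-fold lower in leaf, adjusted p = 0.00334). Neither gene had a read in leaf. DEFA names the B-class partner of GLO in snapdragon. One DEFA gene, comp24526_c0, stood at 0.531 and 0.522 CPM in leaf and 296 and 202 CPM in flower (log2 fold change -8.88, SE 1.29, adjusted p = 0.00657). The other, comp20901_c0, stood at 2.19 and 0.805 CPM in leaf and 177 and 123 CPM in flower (log2 fold change -6.65, SE 0.99, adjusted p = 0.00716). With a library left out, 4, 4, 3 and 2 of them passed. The calls of GLO and FBP1 held with any leaf or flower library left out. DEFA comp20901_c0 did not pass without leaf replicate 2 (adjusted p = 0.0692). DEFA comp24526_c0 did not pass without leaf replicate 1 or leaf replicate 2 (adjusted p = 0.0623 to 0.0688).

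Other MADS-box genes gave 3 higher and 6 lower of 21 (3, 3, 4 and 2 higher and 3, 4, 3 and 3 lower with a library left out). FBP2 (comp5191_c0), a SEPALLATA-type cofactor of floral organ identity, stood at 0 and 0.261 CPM in leaf and 261 and 218 CPM in flower (log2 fold change -10.80, SE 1.37, adjusted p = 0.0049). AP1 (comp14228_c0), a floral meristem and sepal gene, stood at 0.243 and 1.89 CPM in leaf and 66.6 and 48.2 CPM in flower (log2 fold change -5.74, SE 1.11, adjusted p = 0.0203). Both were near 0 in leaf. AG1 (comp18001_c0) is named for AGAMOUS, which sets stamen and carpel identity. It went against the other floral genes, at 12.2 and 7.05 CPM in leaf and 0 in both flower libraries (at least 153-fold higher in leaf, adjusted p = 0.00278), and averaged 34.8 CPM in fruit. AGL1 (comp12596_c0), named for a carpel and fruit gene, and AGL11 (comp4517_c0), named for an ovule gene, were chosen after their values were seen. AGL1 stood at 0.31 and 0.174 CPM in leaf and 0.66 and 0.453 CPM in flower and AGL11 at 0 and 0.935 CPM in leaf and 0 in both flower libraries, and neither passed (adjusted p = 0.15 and 0.194). Their mean in fruit was 37.2 and 37.7 CPM. The flower libraries thus held B-class and SEPALLATA-type transcripts and little or none of these carpel-type IDs. The flowering-time gene SOC1 (comp25395_c0) stood at 83.6 and 52.7 CPM in leaf and 6.27 and 4.36 CPM in flower (log2 fold change 3.68, SE 0.41, adjusted p = 0.00363), and SVP (comp10418_c0), a repressor of flowering in Arabidopsis, at 7.7 and 12.7 CPM in leaf and 0 and 0.17 CPM in flower (log2 fold change 7.12, SE 1.15, adjusted p = 0.00913). The calls of FBP2, AG1 and SOC1 held with any leaf or flower library left out. SVP did not pass without leaf replicate 2 (adjusted p = 0.0558). AP1 did not pass without flower replicate 1, flower replicate 2 or leaf replicate 1 (adjusted p = 0.0551 to 0.0914).

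**Figure D5:**
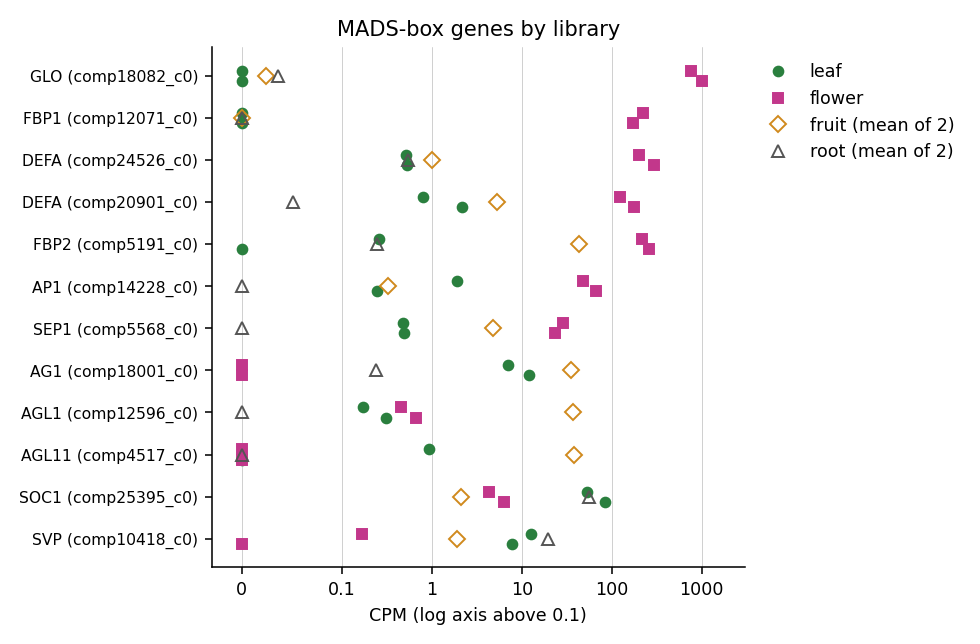
Level of 12 MADS-box genes in each leaf (circles) and flower (squares) library and their mean in fruit (diamonds) and root (triangles), in CPM on an axis that is logarithmic above 0.1. The 4 petal and stamen identity genes are highest in flower, with 1 DEFA gene at a fruit mean of 5.31 CPM, whereas AG1, AGL1 and AGL11 are highest in fruit and at or near 0 in flower.

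In other transcription factor families single genes differed, while several shares were near or under the 10% higher and 9.32% lower of all genes. These were the shares of MYB, AP2 and ERF genes higher and of basic helix-loop-helix genes lower. The shares of SPL and homeodomain genes and of WRKY genes were so in both directions. MYB genes gave 6 higher and 10 lower of 64 (1, 1, 2 and 0 higher and 4, 6, 2 and 2 lower with a library left out). MYB305 (comp14131_c0), a flower MYB of snapdragon that acts on phenylpropanoid genes, stood at 0.0442 and 0.087 CPM in leaf and 1418 and 945 CPM in flower (log2 fold change -14.07, SE 0.84, adjusted p = 0.00258). TT2 (comp20343_c0), a MYB of proanthocyanidin synthesis in Arabidopsis, stood at 20.9 and 59.5 CPM in leaf and 4.92 and 4.19 CPM in flower (log2 fold change 3.14, SE 0.65, adjusted p = 0.0197). Basic helix-loop-helix genes gave 10 higher and 6 lower of 70 (3, 3, 5 and 3 higher and 3, 4, 2 and 1 lower with a library left out). UNE10 (comp15768_c0), annotated as a phytochrome-interacting factor, stood at 67.3 and 59.1 CPM in leaf and 0 in both flower libraries (at least 1010-fold higher in leaf, adjusted p = 0.00305). BHLH135 (comp8132_c0) stood at 0.31 and 0 CPM in leaf and 426 and 438 CPM in flower (log2 fold change -11.43, SE 1.59, adjusted p = 0.00836). Each family thus held genes with reads almost wholly in one tissue. Among SPL and homeodomain genes, 6 of 59 were higher and 6 lower (1, 1, 2 and 2 higher and 3, 5, 2 and 1 lower with a library left out). At4g24660 (comp16517_c0), a zinc finger homeodomain gene, stood at 0.0221 and 0.0652 CPM in leaf and 1936 and 1481 CPM in flower (log2 fold change -15.16, SE 0.86, adjusted p = 0.00258). AP2 and ERF genes gave 7 higher and 11 lower of 80 (2, 1, 1 and 3 higher and 5, 9, 4 and 1 lower with a library left out), while DESeq2 gave 22 lower and limma on log2(TPM + 1) 7. WRKY genes gave 3 higher and none lower of 57 in edgeR, with 6 higher and 2 lower in DESeq2 and 4 lower at an unadjusted p under 0.05, and 1, 2, 0 and 0 higher with a library left out. The calls of MYB305, UNE10, BHLH135 and At4g24660 held with any leaf or flower library left out. TT2 did not pass without flower replicate 1, flower replicate 2 or leaf replicate 2 (adjusted p = 0.105 to 0.125).

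Clock and light-receptor genes gave 9 higher and 12 lower of 65, with 3, 2, 1 and 3 higher and 2, 2, 1 and 1 lower when a library was left out. The labels give no hour of collection, so the clock phase of the tissues is unknown. PHOT2 (comp12877_c0), a blue-light receptor that steers chloroplast movement, stood at 208 and 212 CPM in leaf and 17.3 and 18.4 CPM in flower (log2 fold change 3.56, SE 0.61, adjusted p = 0.0109). COL16 (comp21311_c0), of the CONSTANS-like family, stood at 106 and 58.1 CPM in leaf and 0.792 and 0.0566 CPM in flower (log2 fold change 7.48, SE 1.70, adjusted p = 0.0259). The clock gene PRR73 (comp15892_c0) ran the other way, at 88.5 and 42.5 CPM in leaf and 376 and 315 CPM in flower (log2 fold change -2.40, SE 0.53, adjusted p = 0.0242). RPT2 (comp16128_c0), a partner of phototropins, stood at 83.6 and 47.04 CPM in leaf and 568 and 541 CPM in flower (log2 fold change -3.09, SE 0.67, adjusted p = 0.0228). Receptor and partner thus lay on opposite sides. The lower count was 5 on log2(TPM + 1) and 5 with total scaling without the 20 highest genes. PHOT2, COL16, PRR73 and RPT2 did not pass whichever of the 4 libraries was left out (adjusted p = 0.0531 to 0.175).

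Most of the cell wall genes that passed were lower in leaf. Of 119 xyloglucan, expansin and cellulose genes 28 were lower and 7 higher, with a median log2 fold change of -1.45 (-1.41 with genes at 0 set to their bound) and 8, 10, 7 and 2 lower and 2, 2, 3 and 2 higher when a library was left out. DESeq2 gave 46 lower. XTHB (comp21386_c0), a xyloglucan endotransglucosylase that cuts and rejoins wall polymers, stood at 11.8 and 12.4 CPM in leaf and 5217 and 2996 CPM in flower (log2 fold change -8.41, SE 0.93, adjusted p = 0.0036). XTH6 (comp22888_c1), of the same family, stood at 770.3 and 249.9 CPM in leaf and 11914 and 5537 CPM in flower (log2 fold change -4.10, SE 1.03, adjusted p = 0.0359). EXPA10 (comp17522_c0), an expansin, which loosens walls, stood at 27.5 and 16.6 CPM in leaf and 2818 and 2637 CPM in flower (log2 fold change -6.95, SE 1.79, adjusted p = 0.0379). All 3 were high in both flower libraries. CSLH1 (comp23302_c0), of a cellulose-synthase-like family, ran the other way, at 40.5 and 53.4 CPM in leaf and 0.132 and 0.509 CPM in flower (log2 fold change 7.28, SE 0.67, adjusted p = 0.00279). Pectin genes gave 27 lower and 3 higher of 89 (1, 1, 0 and 1 higher and 5, 11, 6 and 6 lower with a library left out). The pectate lyase At1g04680 (comp21649_c0) stood at 135 and 26.4 CPM in leaf and 1946 and 1668 CPM in flower (log2 fold change -4.49, SE 0.81, adjusted p = 0.0128), with leaf replicate 1 well above leaf replicate 2. PME34 (comp22437_c0), a pectin methylesterase, stood at 153 and 108 CPM in leaf and 1321 and 1026 CPM in flower (log2 fold change -3.17, SE 0.62, adjusted p = 0.0163). The calls of XTHB and CSLH1 comp23302_c0 held with any leaf or flower library left out. The pectate lyase At1g04680 did not pass without flower replicate 1 (adjusted p = 0.0573). XTH6, EXPA10 and PME34 did not pass whichever of the 4 libraries was left out (adjusted p = 0.0528 to 0.225).

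Wall glycoproteins, water channels and the cytoskeleton ran the same way. 11 of 29 arabinogalactan and extensin genes were lower in leaf and none higher in edgeR (7, 9, 7 and 3 lower with a library left out; DESeq2 called 1 higher, and 2 were higher at an unadjusted p under 0.05). AGP18 (comp15826_c0), an arabinogalactan protein, stood at 13.00 and 19.5 CPM in leaf and 2175 and 1568 CPM in flower (log2 fold change -6.85, SE 0.84, adjusted p = 0.0045). FLA14 (comp20178_c0), a fasciclin-like member, stood at 0 in both leaf libraries and 159 and 118 CPM in flower (at least 4382-fold lower in leaf, adjusted p = 0.00343). Of 26 aquaporins 9 were lower and 1 higher (7, 8, 3 and 1 lower and 0, 0, 0 and 0 higher with a library left out; DESeq2 gave 15 lower). TIP2-1 (comp20819_c0), a water channel of the vacuole membrane, stood at 59.2 and 38.1 CPM in leaf and 2702 and 2861 CPM in flower (log2 fold change -5.84, SE 0.77, adjusted p = 0.00527). PIP1-3 (comp15843_c0), of the plasma membrane, stood at 549 and 337 CPM in leaf and 7103 and 5881 CPM in flower (log2 fold change -3.87, SE 0.60, adjusted p = 0.00805). Channels of both membranes were thus lower in leaf. Actin and tubulin genes gave 13 lower and none higher of 43 (6, 6, 7 and 4 lower with a library left out; none higher in DESeq2 or at an unadjusted p under 0.05). An actin gene, comp21541_c0, stood at 3.8 and 6 CPM in leaf and 2377 and 2505 CPM in flower (log2 fold change -8.96, SE 1.03, adjusted p = 0.00397). TUBA3 (comp14367_c0), an alpha-tubulin, stood at 160.1 and 167 CPM in leaf and 656 and 759 CPM in flower (log2 fold change -2.12, SE 0.41, adjusted p = 0.0153). Some genes of these families, members of which are often used as references, thus differed between these tissues. The other 30 of the 43 did not pass. The calls of AGP18, FLA14 and actin comp21541_c0 held with any leaf or flower library left out. TIP2-1 did not pass without leaf replicate 2 (adjusted p = 0.062). PIP1-3 did not pass without leaf replicate 1 or leaf replicate 2 (adjusted p = 0.0558 to 0.101). TUBA3 did not pass whichever of the 4 libraries was left out (adjusted p = 0.0594 to 0.137).

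Surface lipid genes divided, with 13 lower and 8 higher of 49 (2, 3, 2 and 1 higher and 9, 8, 6 and 4 lower with a library left out). CER1 (comp22878_c0), which makes wax alkanes in Arabidopsis, stood at 0.973 and 4.87 CPM in leaf and 849 and 1805 CPM in flower (log2 fold change -8.83, SE 1.15, adjusted p = 0.00521). CYP86A2 (comp22420_c0), a cytochrome P450 that hydroxylates fatty acids for cutin, stood at 78.6 and 133 CPM in leaf and 997 and 1277 CPM in flower (log2 fold change -3.43, SE 0.54, adjusted p = 0.0084). ABCG12 (comp22608_c0), a wax exporter, stood at 0.221 and 0 CPM in leaf and 864 and 709 CPM in flower (log2 fold change -12.77, SE 1.58, adjusted p = 0.0046). Making and export of surface lipids were thus both represented among the lower genes. KCS12 (comp22645_c0), a fatty acid elongation enzyme, ran the other way, at 89.3 and 81.2 CPM in leaf and 4.95 and 2.66 CPM in flower (log2 fold change 4.48, SE 0.63, adjusted p = 0.00621). KCS11 (comp21730_c0), of the same family, stood at 34.3 and 155 CPM in leaf and 5.54 and 7.13 CPM in flower (log2 fold change 3.90, SE 0.77, adjusted p = 0.0169). Both elongase genes were low in each flower library. The calls of CER1, ABCG12 and KCS12 held with any leaf or flower library left out. CYP86A2 did not pass without leaf replicate 1 or leaf replicate 2 (adjusted p = 0.0587 to 0.0723). KCS11 did not pass without flower replicate 1, flower replicate 2 or leaf replicate 2 (adjusted p = 0.0866 to 0.116).

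Phenylpropanoid genes were more often lower than higher in leaf, with 11 against 2 of 40 (2, 1, 1 and 0 higher and 5, 4, 1 and 0 lower with a library left out). COMT1 (comp21660_c0), an O-methyltransferase, stood at 22.1 and 11.8 CPM in leaf and 3603 and 1291 CPM in flower (log2 fold change -7.17, SE 1.56, adjusted p = 0.0223). PAL (comp23045_c0), phenylalanine ammonia-lyase, the entry enzyme, stood at 349.9 and 357 CPM in leaf and 2209 and 1622 CPM in flower (log2 fold change -2.44, SE 0.52, adjusted p = 0.0215). Its TPM were 273 and 304 in leaf and 402 and 364 in flower, so that the difference depends on the effective length behind the TPM. CYP73A16 (comp14850_c0), cinnamate hydroxylase, the second step, stood at 112 and 131 CPM in leaf and 1112 and 904 CPM in flower (log2 fold change -3.05, SE 0.73, adjusted p = 0.0305). COMT1, PAL and CYP73A16 did not pass whichever of the 4 libraries was left out (adjusted p = 0.0552 to 0.172). With limma on log2(TPM + 1), PAL did not pass (adjusted p = 0.599). With the effective-length offset, PAL did not pass (adjusted p = 0.232).

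Flavonoid, anthocyanin and proanthocyanidin genes gave 5 lower and 1 higher of 30, with 0, 1, 1 and 0 lower and 1, 0, 1 and 0 higher when a library was left out and 10 lower in DESeq2. Their summed level was 889.6 and 1807 CPM in leaf and 16209 and 15865 CPM in flower. The flower sum included 12204 and 11176 CPM of the single gene CHS, which did not pass. FLS (comp15278_c0), flavonol synthase, stood at 68.1 and 196 CPM in leaf and 988 and 1409.8 CPM in flower (log2 fold change -3.18, SE 0.69, adjusted p = 0.022). FHT (comp20658_c0), flavanone hydroxylase, stood at 7.01 and 2.04 CPM in leaf and 98.6 and 55.98 CPM in flower (log2 fold change -4.09, SE 0.82, adjusted p = 0.0174). The 4 genes that follow were chosen after their values were seen, as steps of the pigment pathway, and none passed. CHS (comp17908_c0), chalcone synthase, the first step, stood at 91.1 and 531 CPM in leaf and 12204 and 11176 CPM in flower (log2 fold change -5.23, SE 1.52, adjusted p = 0.0546). The leaf libraries differed several-fold from each other. DFR (comp5526_c0), whose symbol stands for dihydroflavonol reductase and whose description is a cinnamoyl-CoA reductase, stood at 0 and 2.78 CPM in leaf and 201 and 432 CPM in flower (log2 fold change -7.83, SE 2.55, adjusted p = 0.0745). ANS (comp19675_c0), anthocyanidin synthase, stood at 0.133 and 10.4 CPM in leaf and 86.96 and 131 CPM in flower (log2 fold change -4.37, SE 2.06, adjusted p = 0.18). F3H (comp7388_c0) stood at 52.7 and 156 CPM in leaf and 438 and 538 CPM in flower (log2 fold change -2.23, SE 1.25, adjusted p = 0.252). In each of the 4, both flower libraries exceeded both leaf libraries, where 64.1% of all genes tested show such a separation in one direction or the other, and leaf replicate 2 exceeded leaf replicate 1. FHT did not pass without flower replicate 1, flower replicate 2 or leaf replicate 2 (adjusted p = 0.051 to 0.096). FLS comp15278_c0 did not pass whichever of the 4 libraries was left out (adjusted p = 0.0688 to 0.114).

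Precursors of terpenes come from the plastid MEP pathway and the cytosolic MVA pathway, and monoterpenes such as the core of paeoniflorin are generally made from plastid precursors. Of 10 MEP genes, only DXR (comp22957_c0), which makes methylerythritol phosphate, was higher, at 3547 and 2487 CPM in leaf and 199 and 114 CPM in flower (log2 fold change 4.27, SE 0.99, adjusted p = 0.0278). None was lower in edgeR, in DESeq2 or at an unadjusted p under 0.05, but the fit on leaf and flower alone called 1 lower. None passed with any leaf or flower library left out, while DESeq2 called 4 and limma on log2(TPM + 1) called 5. 9 of the 10 had a positive log2 fold change, with a median of 1.84. The exception was a deoxyxylulose phosphate synthase gene, comp22577_c0, at 295 and 379.9 CPM in leaf and 1195 and 1002 CPM in flower (log2 fold change -1.70, SE 1.02, adjusted p = 0.28). Of 12 MVA genes 4 were lower and none higher in edgeR (3, 2, 2 and 1 lower with a library left out; DESeq2 called 2 higher, as many as at an unadjusted p under 0.05). HMGR1 (comp24342_c0), the rate-limiting reductase of that pathway, stood at 5.71 and 3.2 CPM in leaf and 486 and 506 CPM in flower (log2 fold change -6.80, SE 0.71, adjusted p = 0.00327). The call of HMGR1 held with any leaf or flower library left out. DXR did not pass whichever of the 4 libraries was left out (adjusted p = 0.093 to 0.138).

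Terpene synthase genes gave 6 higher and 3 lower of 22 (2, 3, 4 and 2 higher and 2, 0, 0 and 0 lower with a library left out). Their product names come from the annotation alone. A gene annotated as a cineole synthase, comp15294_c0, stood at 207 and 585 CPM in leaf and 1.29 and 1.02 CPM in flower (log2 fold change 8.42, SE 1.33, adjusted p = 0.00859). Another with that annotation, comp21880_c0, stood at 380.4 and 279 CPM in leaf and 0.033 and 0.623 CPM in flower (log2 fold change 10.11, SE 1.32, adjusted p = 0.00521). In contrast comp19097_c0, also so annotated, stood at 6.21 and 4.91 CPM in leaf and 42.3 and 907 CPM in flower (log2 fold change -6.41, SE 1.48, adjusted p = 0.0274). The myrcene or ocimene synthase comp19330_c0 stood at 0.0221 and 0 CPM in leaf and 11.1 and 180.1 CPM in flower (log2 fold change -12.76, SE 2.56, adjusted p = 0.0176). For both of these lower genes flower replicate 2 far exceeded flower replicate 1. Leaf and flower thus each had terpene synthases that were far lower in the other tissue. The call of comp21880_c0 held with any leaf or flower library left out. comp15294_c0 did not pass without flower replicate 1 or flower replicate 2 (adjusted p = 0.0659 to 0.0725). comp19097_c0 and comp19330_c0 did not pass without flower replicate 2, leaf replicate 1 or leaf replicate 2 (adjusted p = 0.0676 to 0.183). With limma on log2(TPM + 1), comp19097_c0 did not pass (adjusted p = 0.0541).

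Enzyme families that modify small molecules such as terpenes also differed. Cytochrome P450 genes gave 31 higher and 11 lower of 142 (10, 6, 14 and 8 higher and 3, 2, 1 and 1 lower with a library left out; DESeq2 gave 47 higher and 18 lower). CYP71A1 (comp23060_c0) stood at 496 and 585 CPM in leaf and 0.858 and 1.42 CPM in flower (log2 fold change 8.90, SE 1.38, adjusted p = 0.00795). CYP716B2 (comp22273_c0) stood at 321 and 392 CPM in leaf and 1.19 and 1.13 CPM in flower (log2 fold change 8.26, SE 0.92, adjusted p = 0.00364). Another CYP716B2 ID, comp10123_c0, did not pass in edgeR, at a mean of 0.307 CPM in leaf and 0.599 CPM in flower (log2 fold change -0.947, adjusted p = 0.3325). UDP-glycosyltransferases, which add sugars to small molecules, ran the other way, with 10 higher and 19 lower of 109 (1, 1, 0 and 0 higher and 6, 12, 4 and 3 lower with a library left out). UGT73C3 (comp11497_c0) stood at 17.1 and 15.7 CPM in leaf and 6132 and 3089.7 CPM in flower (log2 fold change -8.13, SE 0.83, adjusted p = 0.00318). UGT85A2 (comp22118_c0) stood at 439 and 154 CPM in leaf and 2.9 and 0.226 CPM in flower (log2 fold change 7.53, SE 2.06, adjusted p = 0.0456). ABC transporters gave 31 higher and 8 lower of 137 (9, 15, 7 and 2 higher and 3, 3, 3 and 1 lower with a library left out). ABCF5 (comp22526_c0) stood at 402 and 542 CPM in leaf and 14.3 and 49.1 CPM in flower (log2 fold change 3.90, SE 0.65, adjusted p = 0.0097). These families thus leaned to different tissues in their counts, and the difference between the families was not tested. The calls of CYP716B2 comp22273_c0 and UGT73C3 held with any leaf or flower library left out. ABCF5 did not pass without leaf replicate 2 (adjusted p = 0.058). CYP71A1 did not pass without flower replicate 1 or flower replicate 2 (adjusted p = 0.0579 to 0.0725). UGT85A2 did not pass whichever of the 4 libraries was left out (adjusted p = 0.115 to 0.164).

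Auxin genes were more often lower in leaf, with 27 lower and 8 higher of 100 (12, 18, 8 and 4 lower and 2, 2, 1 and 2 higher with a library left out; DESeq2 gave 41 lower). IAA14 (comp11401_c0), an early auxin-response repressor, stood at 239 and 175 CPM in leaf and 3964 and 2582 CPM in flower (log2 fold change -3.98, SE 0.73, adjusted p = 0.0135). AUX22D (comp22592_c0), of the same family, stood at 14.4 and 1.39 CPM in leaf and 665 and 489 CPM in flower (log2 fold change -6.19, SE 1.15, adjusted p = 0.0141). The auxin receptor TIR1 (comp7077_c0) ran the other way, at 124 and 84.6 CPM in leaf and 12.5 and 13.8 CPM in flower (log2 fold change 2.99, SE 0.52, adjusted p = 0.0115). So did ABP19A (comp21088_c0), a germin-like protein named for auxin binding, at 1177 and 1143 CPM in leaf and 0.099 and 2.26 CPM in flower (log2 fold change 9.99, SE 1.56, adjusted p = 0.00821). Gibberellin and GASA genes gave 3 higher and 7 lower of 32 (1, 1, 2 and 1 higher and 3, 4, 5 and 3 lower with a library left out). GASA4 (comp16654_c0), a gibberellin-responsive cysteine-rich peptide, stood at 30.5 and 15.2 CPM in leaf and 3282 and 2256 CPM in flower (log2 fold change -6.92, SE 0.97, adjusted p = 0.00614). GAST1 (comp15214_c0), of the same peptide family in tomato, stood at 307 and 192 CPM in leaf and 0 and 0.0566 CPM in flower (log2 fold change 13.32, SE 1.07, adjusted p = 0.00291). Leaf and flower thus each had a GASA-type gene with nearly all of its reads. The calls of ABP19A and GAST1 held with any leaf or flower library left out. AUX22D did not pass without flower replicate 1 (adjusted p = 0.0614). GASA4 did not pass without leaf replicate 2 (adjusted p = 0.0666). IAA14 did not pass without flower replicate 1, leaf replicate 1 or leaf replicate 2 (adjusted p = 0.0599 to 0.129). TIR1 did not pass whichever of the 4 libraries was left out (adjusted p = 0.0533 to 0.0871).

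Genes of other hormones showed single large differences. Ethylene genes gave 2 higher and 2 lower of 29 (2, 2, 2 and 2 higher and 1, 1, 1 and 1 lower with a library left out). ACS1 (comp20473_c0), ACC synthase, the committed step to ethylene, stood at 0.818 and 0.739 CPM in leaf and 41.1 and 31.2 CPM in flower (log2 fold change -5.53, SE 0.42, adjusted p = 0.00258). ACS10 (comp21011_c0), whose Arabidopsis namesake is an aminotransferase, stood at 49.7 and 42.5 CPM in leaf and 4.26 and 2.15 CPM in flower (log2 fold change 3.84, SE 0.46, adjusted p = 0.00428). S-adenosylmethionine synthetases, which supply methyl groups and the ethylene precursor, gave 5 lower of 9 (3, 2, 1 and 1 with a library left out; 3 on log2(TPM + 1)). METK2 (comp18566_c0) stood at 36.2 and 27.6 CPM in leaf and 3434 and 1567 CPM in flower (log2 fold change -6.29, SE 0.70, adjusted p = 0.00367). Jasmonate genes gave 7 higher and 3 lower of 33 (4, 4, 3 and 3 higher and 2, 2, 1 and 1 lower with a library left out). LOX2.1 (comp13140_c0), a lipoxygenase, stood at 49.8 and 72.3 CPM in leaf and 1.68 and 0.792 CPM in flower (log2 fold change 5.60, SE 0.59, adjusted p = 0.00334). Another ID with that symbol, comp10136_c0, did not pass, at a mean of 2.02 CPM in leaf and 3.10 CPM in flower (log2 fold change -0.62, adjusted p = 0.65). TIFY11B (comp21513_c0), of the jasmonate repressor family, stood at 1.86 and 4.63 CPM in leaf and 241 and 220.1 CPM in flower (log2 fold change -6.15, SE 0.78, adjusted p = 0.00494). LOX2.1 comp13140_c0 and TIFY11B were thus each far lower in one of the tissues. Abscisic acid genes gave 3 higher and 6 lower of 29 (0, 0, 0 and 0 higher and 3, 3, 2 and 1 lower with a library left out). CYP707A2 (comp21928_c0), which breaks down abscisic acid, stood at 0.265 and 0.174 CPM in leaf and 91.3 and 93.1 CPM in flower (log2 fold change -8.70, SE 0.48, adjusted p = 0.00279). RD22 (comp20145_c0), a dehydration-responsive gene in Arabidopsis, stood at 2321 and 2003 CPM in leaf and 182 and 281 CPM in flower (log2 fold change 3.22, SE 0.58, adjusted p = 0.0123). The calls of ACS1, ACS10, METK2 comp18566_c0, LOX2.1 comp13140_c0, TIFY11B and CYP707A2 held with any leaf or flower library left out. RD22 did not pass whichever of the 4 libraries was left out (adjusted p = 0.0575 to 0.0906).

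The shares of growth and stress genes that passed lay above and below those over all genes. Cell cycle, replication and histone genes gave 25 lower and 8 higher of 187 (7, 11, 6 and 3 lower and 4, 3, 2 and 2 higher with a library left out; DESeq2 gave 40 lower and 18 higher). A histone H2A gene (comp5963_c0) stood at 43.6 and 31.2 CPM in leaf and 345 and 317 CPM in flower (log2 fold change -3.14, SE 0.36, adjusted p = 0.00403). Heat shock and chaperone genes gave 19 higher and 2 lower of 138 (4, 5, 8 and 3 higher and 1, 1, 1 and 0 lower with a library left out; DESeq2 gave 12 lower). HSP90-1 (comp22946_c0), a chaperone, stood at 467 and 525 CPM in leaf and 53.1 and 38.4 CPM in flower (log2 fold change 3.44, SE 0.48, adjusted p = 0.00608). HSP70 (comp19465_c0) stood at 1051 and 1048 CPM in leaf and 121 and 112 CPM in flower (log2 fold change 3.17, SE 0.52, adjusted p = 0.00957). Both chaperone genes were evenly high in the 2 leaf libraries. Another HSP70 ID, comp10678_c0, did not pass in edgeR, at a mean of 0.364 CPM in leaf and 2.09 CPM in flower (log2 fold change -2.51, adjusted p = 0.1015). With shares under those of all genes in both directions, defence genes gave 4 higher and 4 lower of 55 (0, 0, 1 and 0 higher and 1, 1, 0 and 0 lower with a library left out), with DESeq2 giving 10 and 11. MLP34 (comp22369_c0), a major-latex-like protein, stood at 445 and 516 CPM in leaf and 33051 and 9701 CPM in flower (log2 fold change -5.47, SE 1.10, adjusted p = 0.0179). Flower replicate 1 held over 3 times the level of flower replicate 2 for this gene. The call of HSP90-1 held with any leaf or flower library left out. Histone H2A comp5963_c0 did not pass without leaf replicate 2 (adjusted p = 0.0532). HSP70 comp19465_c0 did not pass without flower replicate 1, flower replicate 2 or leaf replicate 2. MLP34 did not pass without flower replicate 1, leaf replicate 1 or leaf replicate 2 (adjusted p = 0.0571 to 0.147).

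Other genes stood out by fold or level across all genes tested. The gene comp13582_c0, annotated as phosphomannomutase, stood at 92.1 and 119.6 CPM in leaf and 0 in both flower libraries (at least 1694-fold higher in leaf, adjusted p = 0.00403). GATA22 (comp20992_c0), a GATA factor that promotes chlorophyll synthesis in Arabidopsis, stood at 32.6 and 42.4 CPM in leaf and 0 in both flower libraries (at least 600.1-fold higher in leaf, adjusted p = 0.00539). AATL1 (comp8056_c0), an amino acid transporter, stood at 84.5 and 21.6 CPM in leaf and 0 in both flower libraries (at least 844-fold higher in leaf, adjusted p = 0.0085). These 3 had no read in flower. Bp10 (comp21374_c0), a pollen oxidase in Brassica, stood at 0 in both leaf libraries and 152 and 93.1 CPM in flower (at least 3954-fold lower in leaf, adjusted p = 0.00271). TT12 (comp22549_c0), a flavonoid transporter of the vacuole in Arabidopsis, stood at 0 in both leaf libraries and 54.8 and 47.3 CPM in flower (at least 1581-fold lower in leaf, adjusted p = 0.0035). Another ID with that symbol, comp10897_c1, passed the other way, at a mean of 1.19 CPM in leaf and 0 in flower (adjusted p = 0.0198). A further TT12 ID, comp10897_c0, did not pass (adjusted p = 0.124). PME21 (comp34265_c0), a pectin methylesterase, stood at 0 in both leaf libraries and 106 and 71.9 CPM in flower (at least 2836-fold lower in leaf, adjusted p = 0.00427). Bp10 comp21374_c0, TT12 comp22549_c0 and PME21 in turn had no read in leaf. Among the most abundant genes that passed, THI1-2 (comp21116_c0), which makes the thiazole of vitamin B1, stood at 6635 and 5589 CPM in leaf and 242 and 182 CPM in flower (log2 fold change 4.85, SE 0.73, adjusted p = 0.00716). The ID comp15606_c0, whose symbol PERK10 and description as an elongation factor conflict, stood at 0.929 and 1.67 CPM in leaf and 8446 and 16025 CPM in flower (log2 fold change -13.20, SE 2.40, adjusted p = 0.013). The calls of the phosphomannomutase-annotated comp13582_c0, Bp10 comp21374_c0, TT12 comp22549_c0 and PME21 held with any leaf or flower library left out. GATA22 did not pass without leaf replicate 2 (adjusted p = 0.0543). AATL1 did not pass without flower replicate 1 (adjusted p = 0.0527). THI1-2 did not pass without flower replicate 1 or flower replicate 2 (adjusted p = 0.0552 to 0.0561). comp15606_c0 did not pass without leaf replicate 1 or leaf replicate 2 (adjusted p = 0.101 to 0.106).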

How the data were processed

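Bulk poly(A) RNA was sequenced on Illumina machines from leaf, flower, root and fruit, with 2 biological replicates per tissue, per the labels. The authors deposited 1 table of assembled genes with 3 units per library. Per the file headers these are estimated counts, TPM and RPKM, with an effective length per gene; for the assembler, aligner, counting tool and strand setting the sources used here give no name. Reads from paralogs, antisense or overlapping genes may therefore be shared between IDs. The RPKM values were not used for any test.

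The deposited estimated counts were rounded to whole numbers. With R 4.3.3 and edgeR 4.0.16, genes of low count were removed with filterByExpr by tissue (2238 of 30177 IDs), libraries were scaled by TMM (trimmed mean of M-values) to counts per 1e6 (CPM), and a quasi-likelihood model with tissue as its only term was fitted to all 8 libraries, which share 1 estimate of the spread. The contrast was leaf minus flower, with Benjamini-Hochberg adjustment over the 27939 genes tested. The standard error is the log2 fold change divided by the square root of F. Of all IDs, 13595 carry a symbol, 7134 a KEGG description and 12497 a GO term. With 2 libraries against 2, an exact permutation test of a single gene cannot go below p = 0.333, so none is given.

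The 59 gene lists were built from symbols, descriptions and GO terms, and wrong matches were removed by name. The comparison, its lists and its tests were chosen with earlier results of these data known. Named genes include the 3 most abundant passing genes per list and direction. They also include the 12 per direction with the greatest fold and at least 10 CPM in the higher tissue. The 10 per direction with the highest level were added, and lists of at most 10 tested genes were taken whole. The text gives only a part of the named genes. A further 8 genes (2 SF3, AGL1, AGL11, CHS, DFR, ANS and F3H) were chosen after their values were seen. With these included, the named genes number 329, of which 298 passed. Some IDs that share a symbol with a named gene are given outside this rule. They are LOX2.1 comp10136_c0, TT12 comp10897_c0 and comp10897_c1, HSP70 comp10678_c0 and CYP716B2 comp10123_c0. Of 19 alternatives, DESeq2 1.42.0 on the counts and limma 3.58.1 on log2(TPM + 1), a scale that understates folds of low genes, used other tools. The fit of leaf against flower was tested on counts simulated for 27939 genes with the gene means, library sizes and spreads of these data. It recovered 0% of 67 genes changed 4-fold, 34.3% of 67 changed 16-fold and 59.1% of 66 changed 64-fold. Of 27032 unchanged genes left by the filter it called 1. The simulated spreads were those of the model itself, so this count does not give the rate of false calls in the real data.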

Additional observations from a re-analysis of the deposited data

How the results depend on the processing

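The counts of 2794 genes higher and 2604 lower in leaf stayed within 1.5 times under all alternatives that kept the 8 libraries, except DESeq2, which called 4060 lower. Over the fits that left out 1 library, the higher genes ranged from 767 to 2678 and the lower genes from 254 to 2464. With the replicate number as a block, 2648 genes were higher and 2533 lower, and 4734 of the 5398 calls were shared. Leaf and flower libraries of the same number deviated together with r = 0.489, leaf and root with 0.436 and flower and root with 0.384. Pairs with fruit lay between -0.156 and 0.101. With 2 numbers these values do not pair the libraries. The median log2 fold change of all genes was 0.13, and it moved to 0.36 with total scaling without the 20 highest genes (2988 higher and 1980 lower, 60.1% higher) and to 0.45 on log2(TPM + 1). Of the 298 named genes that passed, 170, 155, 173 and 208 lost their call without flower replicate 1, flower replicate 2, leaf replicate 1 and leaf replicate 2. Among these named genes 37 lost it on log2(TPM + 1), 26 under the block and 2 with DESeq2. No call among the 329 named genes, of which the text gives a part, changed direction under the alternatives run. In the simulation at this depth and number of libraries, 4-fold changes were not recovered. It changed only 67, 67 and 66 genes, far fewer than the 5398 that passed here, and the adjustment depends on that number. Its recovery therefore cannot give the share of real differences found between leaf and flower. Its 1 call among 27032 unchanged genes likewise cannot give the share of false calls. A gene that did not pass is not shown to be equal in the 2 tissues.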

Other observations

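Genes of mitochondrial complex I that passed were mostly lower in leaf, at modest folds. Of 25 genes with complex I names or terms, 13 were lower and 2 higher, beside 9.32% and 10% of all genes. The subunit gene At5g08530 (comp12808_c0) stood at 191 and 205 CPM in leaf and 644 and 477 CPM in flower (log2 fold change -1.50, SE 0.35, adjusted p = 0.0294 in edgeR's quasi-likelihood test). The subunit gene At3g18410 (comp5747_c0) stood at 162 and 116 CPM in leaf and 730 and 568 CPM in flower (log2 fold change -2.23, SE 0.41, adjusted p = 0.0134). The 2 higher genes were HCC1 and LPD1, whose names are not those of complex I subunits, and neither passed with a leaf or flower library left out. On log2(TPM + 1) 6 of the list were lower, and 3, 7, 0 and 0 were lower without flower replicate 1, flower replicate 2, leaf replicate 1 and leaf replicate 2. Of 161 tested genes of the KEGG pathway of oxidative phosphorylation, 42 were lower and 13 higher. How many of them are also in the complex I list or among the proton pump genes below was not tested. Proton pump genes of the vacuole gave 11 lower and 1 higher of 27, with 5 lower on log2(TPM + 1) and 3, 3, 0 and 0 lower and 0, 0, 0 and 0 higher with a library left out. VHA-G1 (comp14589_c0), a subunit of the ATP-driven pump, stood at 54.3 and 56.1 CPM in leaf and 256 and 244 CPM in flower (log2 fold change -2.18, SE 0.34, adjusted p = 0.0081). AVP1 (comp7277_c0), the pyrophosphate-driven pump, ran the other way, at 1499.6 and 1149 CPM in leaf and 377 and 406 CPM in flower (log2 fold change 1.76, SE 0.48, adjusted p = 0.0464). Both kinds of pump acidify the vacuole. VHA-G1 did not pass without leaf replicate 1 or leaf replicate 2 (adjusted p = 0.0726 to 0.0813). At3g18410 did not pass without flower replicate 1, leaf replicate 1 or leaf replicate 2 (adjusted p = 0.0673 to 0.143). At5g08530 and AVP1 did not pass whichever of the 4 libraries was left out (adjusted p = 0.061 to 0.197). With limma on log2(TPM + 1), At5g08530 did not pass (adjusted p = 0.109).

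SNARE genes that passed were mostly lower in leaf and aminoacyl-tRNA synthetase genes that passed were higher; over all genes 10% were higher and 9.32% lower, and the difference between the lists was not tested. SNAREs, which fuse vesicles with their target membranes, gave 17 lower and 1 higher of 46, with 7 lower on log2(TPM + 1), 26 in DESeq2, and 5, 5, 1 and 0 lower and 0, 0, 0 and 0 higher with a library left out. SYP22 (comp21823_c0), a syntaxin of the vacuole in Arabidopsis, stood at 40.1 and 34.97 CPM in leaf and 113 and 104 CPM in flower (log2 fold change -1.53, SE 0.28, adjusted p = 0.0136 in edgeR). Aminoacyl-tRNA synthetases, which load tRNAs with amino acids, gave 25 higher and none lower of 50 in edgeR, while DESeq2 called 1 lower, as many as at an unadjusted p under 0.05. With a library left out 15, 17, 17 and 13 were higher. The glycyl-tRNA synthetase GLYRS-1 (comp12163_c0) stood at 214 and 189.7 CPM in leaf and 43.00 and 37.9 CPM in flower (log2 fold change 2.32, SE 0.31, adjusted p = 0.00556). Class III peroxidases, enzymes of the cell wall, gave 11 lower and 1 higher of 39, with 6 lower under the replicate block, and 0, 3, 0 and 0 lower and 1, 1, 0 and 0 higher with a library left out. Their summed level ran the other way, at 1271 and 809 CPM in leaf and 453 and 485 CPM in flower. PNC1 (comp13959_c0), a peroxidase, stood at 11.2 and 12.3 CPM in leaf and 62.01 and 45.3 CPM in flower (log2 fold change -2.19, SE 0.36, adjusted p = 0.00959). Ubiquitin genes, often used as references, were among 8 of 33 housekeeping genes that were lower, a count that was 1 on log2(TPM + 1) and 1, 2, 1 and 0 with a library left out. UBI4 (comp19191_c0) stood at 24.2 and 18.9 CPM in leaf and 111 and 117 CPM in flower (log2 fold change -2.41, SE 0.34, adjusted p = 0.00613). YAB1 (comp15203_c0), named for a YABBY factor that marks the lower side of lateral organs in Arabidopsis, stood at 0.0442 and 0.109 CPM in leaf and 16.2 and 9.4 CPM in flower (log2 fold change -7.34, SE 0.82, adjusted p = 0.00502). BEL1 (comp7855_c1), named for an ovule homeodomain gene in Arabidopsis, stood at 33.8 and 36.5 CPM in leaf and 1.25 and 0.679 CPM in flower (log2 fold change 5.16, SE 0.68, adjusted p = 0.00542), so that each tissue was high for 1 of these developmental genes. The calls of GLYRS-1, YAB1 and BEL1 held with any leaf or flower library left out. UBI4 did not pass without leaf replicate 2 (adjusted p = 0.0826). PNC1 did not pass without flower replicate 1, leaf replicate 1 or leaf replicate 2 (adjusted p = 0.0573 to 0.0864). SYP22 did not pass whichever of the 4 libraries was left out (adjusted p = 0.0528 to 0.15). With limma on log2(TPM + 1), SYP22 did not pass (adjusted p = 0.0817).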
